A study of Mus musculus with 50 samples.

Results

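Selenoprotein P, the selenium carrier of plasma, was measured in wobbler mice together with the glutathione peroxidases and thioredoxin reductases, most of which are selenoenzymes. The genes were taken by symbol: Selenop (formerly Sepp1), Gpx1, Gpx3, Gpx4, Gpx5, Txnrd1 and Txnrd3. Of these 7 genes, 6 had a probe on the array, among 9930 named genes, with 7 probes in all because Txnrd1 had 2. No probe was named for Gpx3, the plasma glutathione peroxidase, and it was not analysed here.

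Mice homozygous for the recessive wobbler mutation (wr/wr), which lies in the vesicle tethering gene Vps54, were compared with wild-type (wt) mice on 2-colour arrays. Wobbler mice are a model of motor neuron disease, and their males are infertile, with sperm that lack a proper acrosome. The testes of 10 wr/wr mice were each hybridised on 4 arrays, and 3 wr/wr spinal cord RNAs were hybridised on 10 arrays: pool1 and pool2, of 4 mice each, on 4 arrays apiece, and mouse 5995 on 2. Each was set against 1 pool of wt RNA of the same organ, made from 10 mice by the sample labels, although the labelling protocol names a smaller number. The sources used here give neither age nor genetic background. All 9 mice of the cord RNAs also gave a testis.

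Every value below is read as the log2 of a ratio, likely wr/wr over wt, so that 0 means no difference from the wt pool. The sources used here do not state the direction. It was read from the channel order of the labels and from microglial transcripts, whose list had a median of 0.63 in the cord. If every array were wt over wr/wr, all signs in the text would be inverted. If every array were Cy5 over Cy3, only the Cy3 arrays would change sign. Neither Selenop nor Gpx4 in testis, nor the Gpx4 difference between the organs, would then be called. Arrays were each centred on their median. The arrays with the mutant RNA in Cy5 and those with it in Cy3 were then averaged with equal weight, which gives 1 value per RNA. Ranked over all probes, the orientations of 1 RNA correlated at rho from -0.309 (mouse 6065) to 0.361 (mouse 5995) in testis, below 0 also in mice 5905 and 5997, and at -0.228 to -0.0205 in cord. Many values thus differed by dye, and for several members results are given by dye. Because 1 wt pool served each organ, the tests leave out the spread among wt animals. Ratios say nothing of how strongly a gene is expressed, and in these whole organs fewer cells of a type and less RNA per cell cannot be told apart.

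Selenium enters these proteins as selenocysteine, an amino acid inserted at a UGA codon by a dedicated machinery. Selenop, made chiefly by the liver and also locally, carries many selenocysteines and delivers selenium to testis and brain, where the receptor Lrp8 takes it up. Glutathione peroxidases reduce peroxides with glutathione, and thioredoxin reductases keep thioredoxin reduced with NADPH. The testis depends on this supply: Gpx4 protects spermatid membranes from lipid peroxidation and ends up as a structural protein of the sperm midpiece, and Txnrd3 is a reductase of the testis. Gpx5 is secreted by the epididymis and has cysteine in place of selenocysteine.

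The promoters of 3 members are shown because their genes gave the main patterns below: a lower ratio in both organs (Selenop), opposite ratios in the organs (Gpx4) and a very high ratio in 1 testis (Gpx5). The windows, from RefSeq on GRCm38.p6, run from 250 bases before to 50 bases after an annotated start, on the gene's strand. RefSeq gives 3 start windows for Selenop, which lies at chr15:3270767-3280510, and chr15:3270727-3271026 (plus strand), the 1 with a motif match, is shown. Of the 4 windows of Gpx4 (gene at chr10:80047166-80056439), chr10:80053409-80053708 (plus strand) is shown, and Gpx5 (chr13:21286429-21292727) has 1, chr13:21292637-21292936 (minus strand). Capitals mark matches on either strand to the TATA box (TATAAA), the CCAAT box (CCAAT), the GC box (GGGCGG), the core of the antioxidant response element (TGACNNNGC) or a motif of androgen receptor sites (AGAACA).
Selenop promoter: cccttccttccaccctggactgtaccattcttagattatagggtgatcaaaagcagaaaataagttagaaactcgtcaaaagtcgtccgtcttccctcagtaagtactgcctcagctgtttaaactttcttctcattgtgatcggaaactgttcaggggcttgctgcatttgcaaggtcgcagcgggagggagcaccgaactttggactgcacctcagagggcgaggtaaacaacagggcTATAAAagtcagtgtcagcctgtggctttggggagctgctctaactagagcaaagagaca
Gpx4 promoter: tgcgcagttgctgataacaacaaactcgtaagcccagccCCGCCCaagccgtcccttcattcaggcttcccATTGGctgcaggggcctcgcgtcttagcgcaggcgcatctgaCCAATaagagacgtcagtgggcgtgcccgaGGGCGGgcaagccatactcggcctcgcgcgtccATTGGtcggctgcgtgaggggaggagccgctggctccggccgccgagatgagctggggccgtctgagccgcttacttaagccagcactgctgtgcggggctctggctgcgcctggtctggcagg
Gpx5 promoter: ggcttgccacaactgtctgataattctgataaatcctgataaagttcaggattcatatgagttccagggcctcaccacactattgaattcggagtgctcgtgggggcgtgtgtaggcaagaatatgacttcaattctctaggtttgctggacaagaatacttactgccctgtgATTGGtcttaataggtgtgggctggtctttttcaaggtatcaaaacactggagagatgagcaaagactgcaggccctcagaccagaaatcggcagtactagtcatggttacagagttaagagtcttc
The Selenop window held TATAAA from -10 to -5 relative to this start, a motif present in 13.6% of 32851 mouse promoter windows, and none of the other 4 motifs. The Gpx4 window held a CCAAT box at 3 positions and a GC box at 2, motifs found in 37.4% and 35.7% of all windows. The Gpx5 window held CCAAT alone, from -77 to -73. The antioxidant response element core has no match in the 3 windows shown and occurs in 12.4% of all windows, and the androgen receptor motif has none either and occurs in 19%. These matches describe the letters of the windows only.

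In the testis, Selenop was lower and Gpx4 higher in wr/wr mice. These 2 of the 7 member probes passed an adjusted p of 0.05 in limma, a share to be read against 12.3% of all 20218 probes tested, 7.28% of them higher and 5.06% lower. Gpx1 came close to the threshold on the lower side, Txnrd3 and both Txnrd1 probes did not pass, and Gpx5 lay near 0 in most mice but was very high in 1. In the cord 0 members passed in limma, as did 0% of 17055 probes, of which 1476 (8.65%) had an unadjusted p under 0.05. Selenop and Gpx4 were below 0 in every cord RNA. The plot of ratios by RNA shows all of these values.

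**Figure D1:**
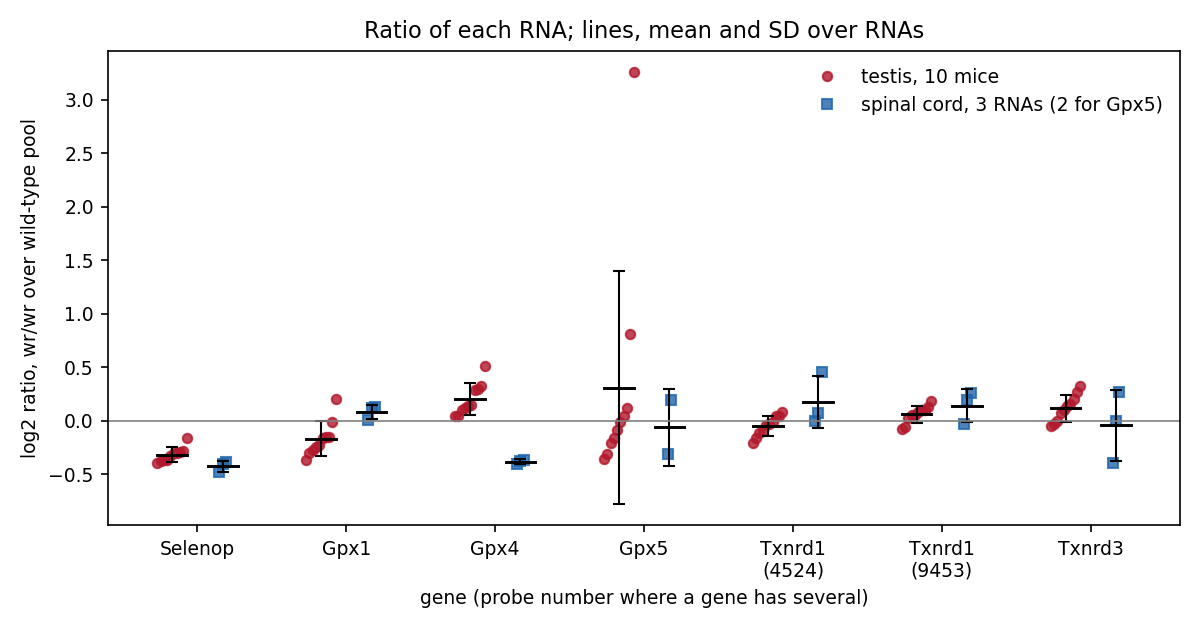
Log2 ratio (y axis) of each member probe (x axis) in the 10 testis RNAs (red circles) and the spinal cord RNAs (blue squares); black lines give the mean and SD over RNAs. Selenop lies below 0 in all RNAs of both organs, Gpx4 lies above 0 in the testes and below 0 in the cords, and Gpx5 reaches 3.25 in the testis of mouse 5907.

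Selenop had the narrowest spread of the members in testis. Its ratio was lowest at -0.39, had a median of -0.32 and was highest at -0.16, below 0 in 10 of 10 mice. The mean of -0.32 ± 0.07 (SD, n = 10) corresponds to 0.802-fold the wt level, and the 95% interval ran from -0.38 to -0.26 (limma adjusted p = 0.000339). All 10 testes were below 0 for 3.12% of tested probes. The mean stood at the 3.34 percentile of all tested probes and the SD at the 1.47 percentile. That SD is of values averaged over the dyes, which differed within animals. Mouse 5907 was at -0.21 in Cy5 and -0.57 in Cy3, and mouse 5905 at -0.52 and -0.20. The small SD therefore does not measure how alike the animals were. The interval and adjusted p given above rest partly on that SD. With trend and robust moderation the limma standard error was 0.064, against 0.029 in the main fit, and the adjusted p was 0.0445. Without mice 5905, 5997 and 6065, whose dye orientations disagreed and which were left out after seeing the data, the mean was -0.31 (adjusted p = 0.0093).

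In the spinal cord, Selenop had ratios of -0.39 in pool1, -0.48 in pool2 and -0.40 in mouse 5995. The cord mean of -0.43 ± 0.05 (SD, n = 3) is 0.744-fold the wt level, with an unadjusted p of 0.0165 and a limma adjusted p of 0.542. That adjusted p was the smallest reached by any cord probe, so it does not set Selenop apart from other probes of the cord. The 3 RNAs lay close together and on the same side as every testis, although mouse 5995 was at -0.635 in Cy5 and -0.168 in Cy3. All 13 RNAs of both organs were below 0 for 59 of 17005 probes, or 0.347%.

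The mean Selenop ratio was alike in both dyes. When wr/wr RNA carried Cy5 the testis mean was -0.31, and when it carried Cy3 it was -0.33. In the cord these means were -0.46 and -0.40. The mean of each orientation was below 0 in each of the 13 RNAs, which held for only 3 of 17005 probes (0.0176%): Selenop, Htra1, a secreted serine protease (-0.45 in testis and -0.68 in cord), and probe 17370, which has no gene name here. Of the individual arrays, 39 of 40 in testis and 10 of 10 in cord gave a negative Selenop value. Read as Cy5 over Cy3 on every array, the testis mean would be 0.012 and not called.

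**Figure D2:**
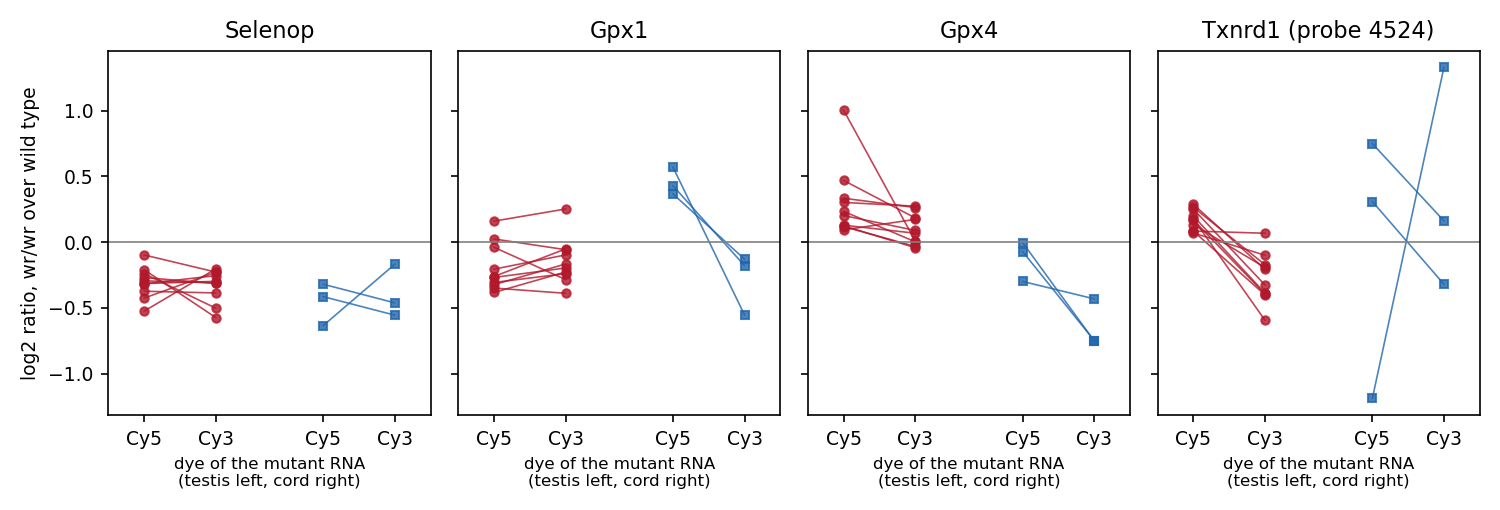
Log2 ratio (y axis) by the dye of the wr/wr RNA (x axis, Cy5 then Cy3), with a line joining the orientations of 1 RNA, for 10 testis RNAs (red circles) and 3 cord RNAs (blue squares). Selenop stays below 0 in both orientations in every RNA, whereas Gpx1 in cord and Txnrd1 probe 4524 in testis change sign with the dye.

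Markers of several cell types moved in the same testes. Of 8 measured Leydig markers 4 fell and 0 rose in limma, where 5.06% of all probes were lower and 7.28% higher. Those lower were Hsd17b3, Cyp17a1, Cyp11a1 and Ptgds. The others were Fads1 (-0.14), Star (-0.09), Scarb1 (-0.06) and Hsd3b1 (0.25, above 0 in 8 of 10 testes, adjusted p = 0.0665). The list median was lowest in mouse 5907 (-0.45) and highest in mouse 5995 (-0.05). Of 8 Sertoli markers 6 rose, with a list median of 0.26. Rhox5 (-0.01) and Trf (-0.02, another probe at -0.16) did not, and Sox9, which rose (0.19), had another probe at -0.14. Of 8 genes of the microglia list 3 fell in testis, Cd68 (-0.37), C1qa (-0.24) and C1qc (-0.15). The rest did not pass, with Laptm5 at -0.11, Mpeg1 at 0.01, Aif1 at 0.05, C1qb at 0.06 and Tyrobp at 0.24. In the cord the oligodendrocyte list had a median of -0.40 (5 genes) and the neuron list -0.20 (5 genes, with Nefh at -0.90 and Nefm at -0.75). The median of the microglia list was 0.63 (7 genes), a sign that had served to read the direction of the ratios. That of the astrocyte list was 0.28 (7 genes, from S100b at -0.57 to Vim at 1.15). The list of blood plasma and liver genes had a median of 0.42 (4 genes, from Ttr at -0.31, with another probe at -0.41, to Apoa2 at 0.42). The part of these cell types in the Selenop ratio was not tested. Across the 10 testes, the ratios most like those of Selenop, by Pearson r among 13342 probes, were those of Col5a1 (r = 0.939), Grb7 (r = 0.897) and Nkg7 (r = 0.895). With 10 mice and that many probes, such values describe these animals only.

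Gpx1, the cytosolic glutathione peroxidase, was below 0 in 9 of 10 testes. Its lowest value was -0.37, the median -0.20 and the highest 0.21, in mouse 5995. The mean was -0.17 ± 0.16 (SD, n = 10), with a limma adjusted p of 0.0536, just outside the threshold. Without mouse 5995 the mean was -0.21 and the probe passed (adjusted p = 0.0262). In the cord Gpx1 had ratios of 0.13 in pool1, 0.12 in pool2 and 0.01 in mouse 5995, a mean of 0.08 ± 0.07 (adjusted p = 0.737). The orientations were far apart: the cord values averaged 0.46 in Cy5 and -0.29 in Cy3, and no cord RNA kept its sign between the orientations.

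Gpx4, the phospholipid hydroperoxide glutathione peroxidase, was above 0 in 10 of 10 testes. Its ratio was lowest at 0.04, had a median of 0.14 and was highest at 0.51, in mouse 6065, where it was 1.0 in Cy5 and 0.01 in Cy3. The mean was 0.20 ± 0.15 (SD, n = 10), or 1.15-fold the wt level, with a 95% interval from 0.10 to 0.31 (limma adjusted p = 0.0262). The call is a narrow one: the mean was 0.30 in Cy5 and 0.10 in Cy3, and with the Cy3 arrays alone the adjusted p was 0.193. It also missed the threshold without mouse 5907, 6069, 6335 or 6493, with adjusted p from 0.0521 to 0.0635. All testes were above 0 for 3.3% of tested probes.

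In the cord Gpx4 had ratios of -0.41 in pool1, -0.37 in pool2 and -0.38 in mouse 5995. The mean of -0.38 ± 0.02 (SD, n = 3) is 0.766-fold the wt level, with an unadjusted p of 0.0217 and an adjusted p of 0.542. These 3 RNAs agreed closely, and both orientations were below 0 in each of them, but the mean was -0.12 in Cy5 and -0.64 in Cy3. All 3 cord RNAs were below 0 for 20.7% of tested probes.

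Across the testes, Gpx4 was followed most closely by Prdx4 (r = 0.973), a peroxiredoxin of the endoplasmic reticulum that is on the list of related genes below. Flot2 (r = 0.956), a membrane scaffold protein, and Abhd5 (r = 0.946), an activator of triglyceride breakdown, came next. Of the named probes 18 exceeded 0.9, and the highest Gpx4 value, that of mouse 6065, rests on its Cy5 arrays. The list of spermatid markers had medians from -0.46 in mouse 5995 to 0.47 in mouse 6065, the mice in which Gpx4 was at 0.04 and 0.51. In mice 6335 and 6493, with Gpx4 at 0.30 and 0.29, these medians were -0.02 and 0.06. Of its 11 members 0 passed in limma in testis (2 higher at an unadjusted p under 0.05). The part of spermatid number in the Gpx4 ratio was not tested.

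The direction of the Gpx4 difference was opposite in the organs. The testis mean was 0.20 and the cord mean -0.38, a difference of 0.58 (95% interval 0.38 to 0.79, limma adjusted p = 0.0028), and every testis lay above every cord RNA. By dye, the difference was 0.74 in the Cy3 arrays (adjusted p = 0.000796) and 0.43 in the Cy5 arrays, where it was not called (adjusted p = 0.12). Gpx4 was the only 1 of 6 member probes tested in both organs that differed, whereas 21.2% of 17005 probes did, 10.8% higher and 10.4% lower in testis. When cord RNAs were paired with the testes of the same mice, the Gpx4 difference was 0.53 but rested on 3 pairs (adjusted p = 0.391). In that limma fit 0% of 16983 probes passed, and 2152 (12.7%) had an unadjusted p under 0.05. All testes above 0 and all cord RNAs below 0 occurred in 1.54% of probes.

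**Figure D3:**
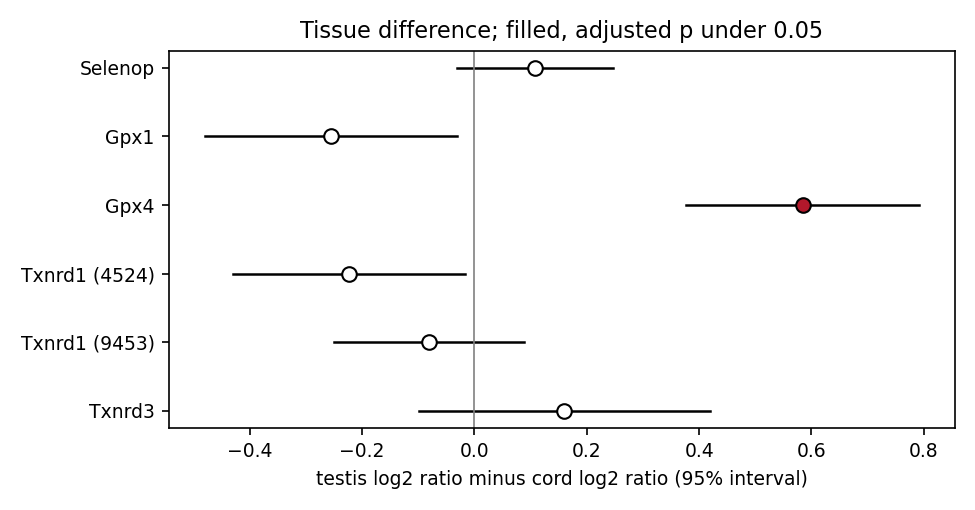
Testis log2 ratio minus cord log2 ratio (x axis) for the 6 member probes tested in both organs (y axis), with 95% intervals from the fit over 13 RNAs. The interval of Gpx4 lies from 0.38 to 0.79, that of Selenop includes 0, and filled points passed an adjusted p of 0.05.

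For Selenop the difference between the organs was 0.11, from -0.32 in testis and -0.43 in cord, with a 95% interval from -0.03 to 0.25 (adjusted p = 0.242). The interval leaves either sign possible. For Gpx1 it was -0.26 (interval -0.48 to -0.03, adjusted p = 0.0956), from -0.17 in testis and 0.08 in cord. For Txnrd3 it was 0.16 (interval -0.10 to 0.42, adjusted p = 0.356).

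Gpx5, the secreted peroxidase of the epididymis, had a ratio of 3.25 in the testis of mouse 5907, which is 9.54-fold the wt pool. Mouse 5906 was next at 0.81. The other 8 testes lay between -0.36 and 0.12. Both orientations in mouse 5907 were high, at 2.96 in Cy5 and 3.55 in Cy3. Over all mice the mean was 0.31 ± 1.09 (SD, n = 10, adjusted p = 0.53), and without mouse 5907 it was -0.02.

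Other genes of the epididymis were divided in mouse 5907. Of 18 epididymis genes listed, 3 had a probe. Adam7, a membrane protein of the epididymis, was at 1.92 in mouse 5907, its highest value, and at 1.02 in mouse 6069, where Gpx5 was at -0.16. The epididymal lipocalin Lcn5 was at 0.15 in mouse 5907, also its highest value, and Lcn8 was at 0.24 there but at 0.51 in mouse 5995. By Pearson r over the 10 mice, the probes most like Gpx5 were Pfkl (r = 0.965), Purg (r = 0.964) and Defb20 (r = 0.963), all high in mouse 5907, at 4.69, 1.35 and 1.35. Defb20 is a beta-defensin, a family with many members in the epididymis. Such an r rests on mouse 5907, and 32 named probes exceeded 0.9. Whether epididymis was carried into this sample was not tested.

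**Figure D4:**
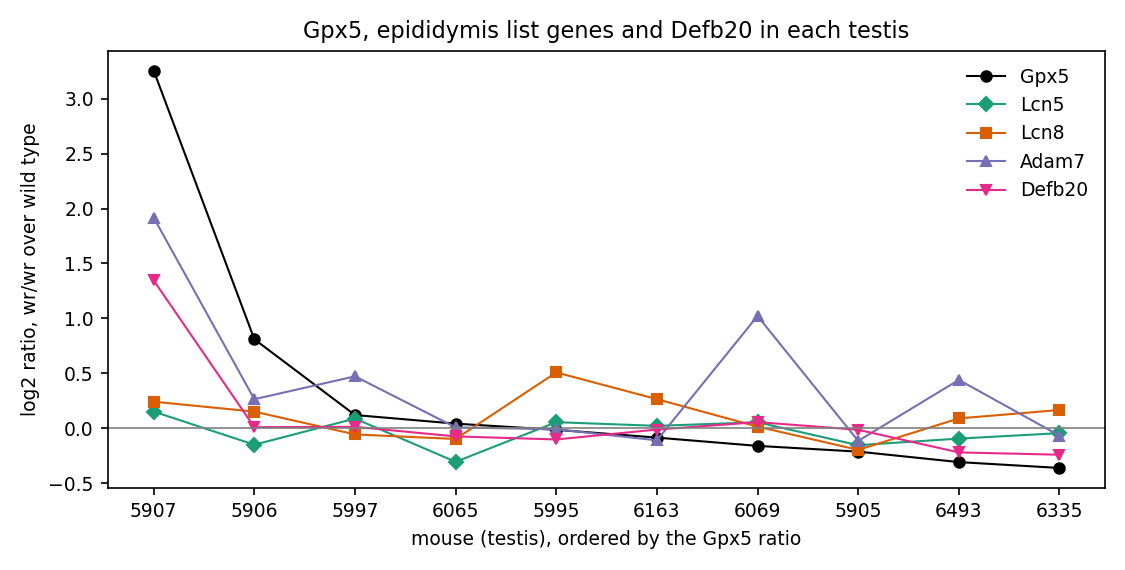
Log2 ratio (y axis) of Gpx5, of the 3 epididymis genes with a probe and of Defb20 in each of the 10 testes (x axis, ordered by Gpx5). Not drawn are Pfkl and Purg, which were more like Gpx5 than Defb20 was and were at 4.69 and 1.35 in mouse 5907. Mouse 5907 is high for Gpx5 (3.25), Adam7 (1.92) and Defb20 (1.35), while Lcn5 (0.15) and Lcn8 (0.24) are closer to 0.

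In the cord, Gpx5 had a value in both orientations in pool1 (0.19) and pool2 (-0.32) only, and was not tested there. In pool2 its 4 arrays ran from -1.35 to 0.997, and in mouse 5995 the Cy3 array had no value.

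The thioredoxin reductases showed no call in either organ. Txnrd3, the testis reductase that can also reduce glutathione, ran from -0.05 to 0.33 in testis with a median of 0.12. It was above 0 in 7 of 10 mice, with a mean of 0.12 ± 0.13 (SD, n = 10, adjusted p = 0.0884). In the cord it was at 0.00 in pool1, -0.39 in pool2 and 0.27 in mouse 5995, on both sides of 0. The pool2 value averages -1.45 in Cy5 and 0.67 in Cy3.

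Txnrd1, the cytosolic reductase, was read by 2 probes that had opposite signs in testis. Probe 4524 averaged -0.05 ± 0.09 (adjusted p = 0.358) and probe 9453 averaged 0.06 ± 0.08 (adjusted p = 0.239), each over 10 mice. For probe 4524 the dye decided the sign, with a testis mean of 0.17 in Cy5, where 10 of 10 mice were above 0, and of -0.27 in Cy3, where 9 of 10 were below 0. Probe 9453 averaged 0.09 in Cy5 and 0.02 in Cy3. In the cord, probe 4524 was at -0.01 in pool1, 0.46 in pool2 and 0.07 in mouse 5995. Probe 9453 was at 0.19, 0.26 and -0.03 in the same order, and neither passed (adjusted p = 0.634 and 0.643). The values near 0 average opposite dyes. Probe 4524 was at 0.31 in Cy5 and -0.32 in Cy3 in pool1, and at -1.19 and 1.33 in mouse 5995. In that mouse probe 9453 was at -0.70 in Cy5 and 0.63 in Cy3.

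No selenoprotein gene outside the member set passed in testis on the 1 probe counted for it. Of 14 such genes tested, from 18 listed, 0 passed in either direction in limma (median -0.03, against -0.01 over all probes). At an unadjusted p under 0.05 were 2 higher and 2 lower, as were 30.3% of all probes. Probes left out of this count were at 0.335 for Selenow (counted probe -0.04), 0.21 for Selenok (counted probe 0.12), and -0.09 and -0.01 for Txnrd2 (counted probe -0.01). Of 10 genes of selenium handling and selenocysteine insertion 1 fell, where 5.06% of all probes were lower. It was Selenbp1, a selenium-binding methanethiol oxidase, at -0.13 ± 0.08 (adjusted p = 0.0267). Uncounted probes of this list were at -0.475 for Eefsec (counted probe -0.11) and -0.31 for Secisbp2 (counted probe 0.06). Others were at 0.19 for Lrp8 (counted probe 0.10), 0.09 for Lrp1 (counted probe -0.08) and -0.04 for Lrp2 (counted probe -0.07). Of 12 genes of glutathione synthesis and recycling 0 passed in limma (1 higher and 1 lower at an unadjusted p under 0.05).

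Of 13 thioredoxins and peroxiredoxins in testis, 3 were higher and 0 lower, where 7.28% of all probes were higher and 5.06% lower (list median 0.13, errors as SD over 10 mice). Thioredoxin itself, Txn1, rose by 0.35 ± 0.26 (adjusted p = 0.0221), the endoplasmic reticulum peroxiredoxin Prdx4 by 0.26 ± 0.23 (adjusted p = 0.0386) and the cytosolic Prdx2 by 0.23 ± 0.21 (adjusted p = 0.0412). Txn1 and Prdx4 were above 0 in 10 of 10 mice and Prdx2 in 9. Among 13 other antioxidant genes only Sod2, the mitochondrial superoxide dismutase, rose (0.14 ± 0.11, adjusted p = 0.0369), and its other probe was at 0.17.

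Glutathione transferases, which couple glutathione to foreign and lipid compounds, were divided in testis, with 2 of 16 higher and 3 lower. Of all probes tested in testis, 7.28% were higher and 5.06% lower. Gstm1 fell by 0.60 ± 0.20 (adjusted p = 9e-04), Gstm3 by 0.34 ± 0.13 (adjusted p = 0.00306) and Gsta3 by 0.33 ± 0.20 (adjusted p = 0.0147). Gsto2 rose by 0.30 ± 0.15 (adjusted p = 0.0113) and Gsta2 by 0.27 ± 0.23 (adjusted p = 0.0344). Gstm1 and Gstm3 lay below 0 in 10 of 10 mice. Genes of this family are close in sequence, and cross-hybridisation of their probes was not tested.

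**Figure D5:**
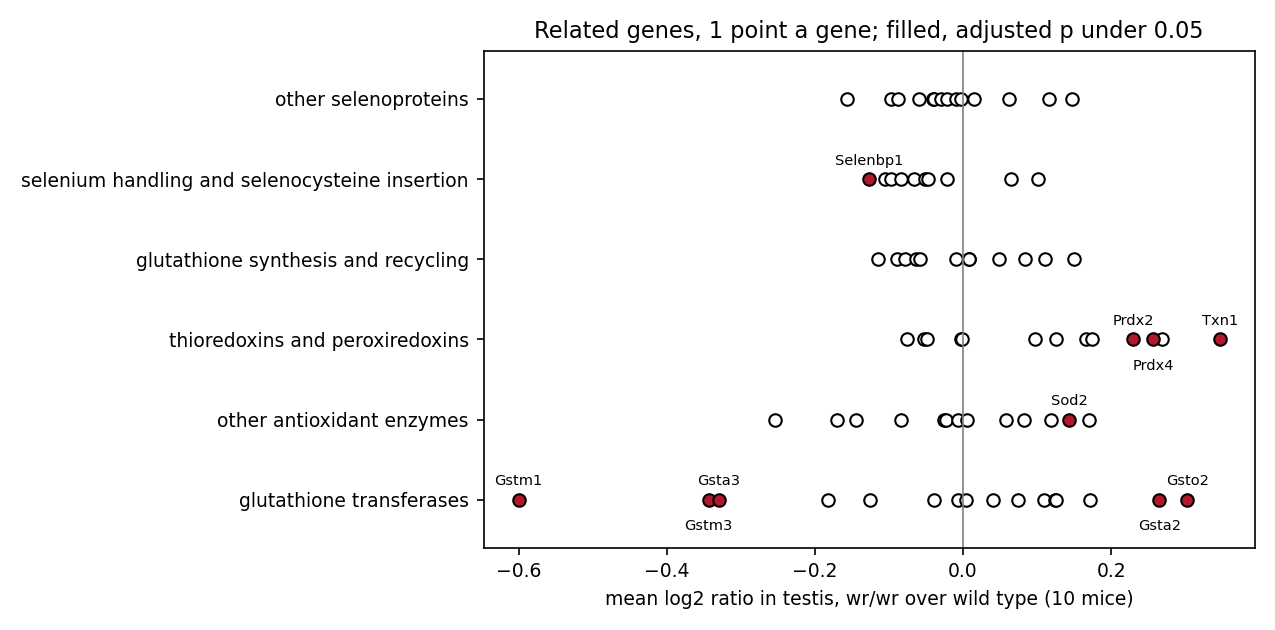
Mean log2 ratio in testis over 10 mice (x axis) of each gene of 6 related lists (rows), 1 point a gene, filled where the adjusted p was under 0.05. The selenoprotein and glutathione synthesis lists have no filled point, the thioredoxin list has 3 on the higher side, and the glutathione transferases have filled points on both sides, down to Gstm1 at -0.60.

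In the cord 0 genes of these 6 lists passed in limma, and the values that follow, of genes with 1 sign in all 3 RNAs, are descriptions. At an unadjusted limma p under 0.05 were 4 higher and 3 lower, as were 8.65% of all cord probes. The lists held 13, 9, 10, 12, 11 and 12 genes tested in cord, in the order used for testis. Of the other selenoproteins, Msrb1, which repairs oxidised methionine, was at -0.48 ± 0.19, Selenok of the endoplasmic reticulum at -0.22 ± 0.09 and Selenow at -0.18 ± 0.13, while Selenon was at 0.21 ± 0.14. That list had a median of -0.12 over 13 genes, against 0.00 over all cord probes. Of selenium handling, Selenbp2 was at -0.40 ± 0.28 and Sephs1 at 0.23 ± 0.10.

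Of glutathione synthesis and recycling, Gpx7 and Gpx8, peroxidases of the endoplasmic reticulum that lack selenocysteine, were at 0.54 ± 0.37 and 0.47 ± 0.29, each above 0 in all 3 RNAs. Of the thioredoxin list, Prdx4 was at 0.90 ± 0.62. Cytosolic Prdx2, on the higher side in testis, was at -0.26 ± 0.04 in cord, and Txn1 was at 0.18 ± 0.12. The spermatid thioredoxin Txndc2 was at -0.45 ± 0.18. Of the glutathione list, Oplah, which recycles glutathione's oxoproline, was at 0.32 ± 0.14, with another probe at 0.03.

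Sod2 was at -0.32 ± 0.12, read by a probe other than that used for testis, with the second probe at -0.68, and Sod1 was at -0.17 ± 0.16, with another probe at -0.31. The extracellular Sod3 lay on both sides of 0 (-0.20 ± 0.87). Msrb2, a mitochondrial methionine repair enzyme, was at -0.37 ± 0.23, and Keap1, the sensor that restrains the antioxidant regulator Nfe2l2, at 0.34 ± 0.16. Of the glutathione transferases, microsomal Mgst2 was at 0.73 ± 0.50 and Gsto1 at 0.15 ± 0.09 (other probes at 0.38 and -0.04), while Gstk1 was at -0.16 ± 0.12 and Gstp1 at -0.12 ± 0.10. All errors here are SD over 3 RNAs.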

How the data were processed

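Per the labels' protocols, total RNA was reverse transcribed and coupled indirectly to Cy3 or Cy5 for 50 arrays. The authors' deposited table holds 1 log ratio, read here as log2, per probe and array. The sources used here do not give background correction, normalization, filters or direction. No header or label states the log base. Base 2 was assumed. In size, 1472 deposited values lie between 15.642 and 16.976, near the log2 of a 16-bit range, although the largest exceeds it. No member value was among them.

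Each array was centred on its median, arrays of 1 dye were averaged per RNA, and the means for the dyes were averaged. No sign was turned. Per-RNA ratios were compared with 0 by limma's moderated test (version 3.58.1, R 4.3.3; Benjamini-Hochberg over all probes; threshold 0.05) for probes with both orientations in at least 8 testis RNAs or all 3 cord RNAs, and testis minus cord was fitted over the 13 RNAs. Arrays of 1 dye from different RNAs correlated at r of -0.0397 or more. Deviations of cord RNAs and the testes of their mice, paired through the mouse numbers in the labels, correlated at -0.00867, 0.00547 and 0.00842. The number of arrays limits precision.

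Probe names come from the platform annotation of 14030 probes with 1 symbol. In lists 1 probe stands for a gene, that with most values. All member probes are reported, and of each related list the called genes in testis (at most 4 a direction) and, in cord, the largest of 1 sign (at most 3 a direction). For Selenop, Gpx4 and Gpx5 the 3 named probes most like each by Pearson r over 10 testes are given. Marker genes and Htra1 are named outside that rule, Htra1 after its values were seen. Members and lists were chosen with earlier results of these data known. Other dye, centring, scaling, filter, moderation and averaging choices were tried, and each RNA was left out in turn.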

Additional observations from a re-analysis of the deposited data

Results flagged for a closer look

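In testis, the Gpx5 ratio of 3.25 in mouse 5907 stood apart from the other 9 mice, with the next value at 0.81 and a gap of 0.676 of the whole range, against a critical value of 0.466 for 10 samples. The Selenop ratio of -0.16 in mouse 6493 was the value nearest to 0, with the next at -0.29 and a gap of 0.537 of the range. Chance alone gives such a gap in about 1 of 20 groups, and 7 member probes were examined. Gpx4 differed between the organs, with a testis ratio of 0.20, a cord ratio of -0.38 and a difference of 0.58 in the fit over 13 RNAs.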

How the results depend on the processing

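The lower Selenop ratio in testis passed under 10 of 11 alternatives and without any 1 mouse (mean from -0.34 to -0.31). With trend and robust moderation it passed only narrowly, at a limma adjusted p of 0.0445 against 0.000339 in the main fit. The alternative under which it failed was reading every array as Cy5 over Cy3, with the sign of the Cy3 arrays turned, where it was 0.012. That reading also gave 0.22 for Txnrd1 probe 4524 in testis, 0.26 for Gpx4 in cord, and differences between the organs of -0.16 for Gpx4 and 0.44 for Txnrd1 probe 4524. With only Cy5 arrays, probe 4524 was at 0.17 in testis and 0.22 in the difference. With only Cy3 arrays the Gpx1 difference was 0.14. The cause was not tested.

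The 2 members called in testis became 1 with the Cy3 sign turned (Txnrd1 probe 4524, with neither Selenop nor Gpx4 called), 4 with only Cy5 arrays, and 4 with arrays as observations and RNA as a random block. Leaving out 1 mouse gave 1 to 3. All called testis probes, 2494, became 949 with the sign turned, 1352 with only Cy3 arrays, 4590 with arrays as observations, 1549 with trend and robust moderation, and 755 (without mouse 6493) to 2584 with 1 mouse left out. In cord, arrays as observations called 2 members, Selenop and Gpx4 (adjusted p = 0.0402 each), and 362 probes, where the main test called 0 (1476 probes at an unadjusted p under 0.05). The 1 member differing between the organs, Gpx4, was replaced by Gpx1 with only Cy5 arrays (Gpx4 0.43, adjusted p = 0.12) and with the sign turned (Gpx4 adjusted p = 0.307). It became 0 with the replicate block of paired RNAs, and 1 to 2 with 1 RNA left out, the second being Gpx1 without mouse 5995 and Txnrd1 probe 4524 without pool1. The 3604 probes differing became 1832 with the sign turned, 1604 with only Cy5 arrays and 0 with the replicate block. Sign changes of values whose interval included 0 and that passed in neither setting were not counted as reversals. The 0 calls in cord set no limit on change.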
